A study of Mus musculus with 8 samples.

Results

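The glial cell line-derived neurotrophic factor gene Gdnf and 4 regulators known from denervated muscle, Ncam1, Runx1, Hdac4 and Gadd45a, were followed across tibialis anterior (TA) muscles of wild-type and Klotho-deficient mice. They were picked by name, each as the row of the deposited count table that carries its gene symbol, and all 5 were found among the 12551 genes of that table. The study asked which transcripts change as muscle wastes in Klotho deficiency, with the contact between nerve and muscle among its subjects. RNA was sequenced from TA muscle of 4 wild-type mice (WT, Klotho wt/wt) and 4 Klotho knockout mice (KL-/-, Klotho null/null), all male and 7 weeks of age. The line had a mixed background, heterozygous mice were bred to give both genotypes, and the null allele is carried in the whole body rather than in muscle alone. Neither genotype carried another engineered allele or received a treatment by the labels, and no muscle had been surgically denervated.

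When a muscle fibre loses its nerve, electrical activity stops and a set of genes that activity keeps low is switched on along the whole fibre. Hdac4, a class IIa histone deacetylase, is a sensor in this response: it enters myonuclei, represses Dach2 and so releases Myog, which with Myod1 acts through E-boxes on acetylcholine receptor genes. Gadd45a, a small stress-induced nuclear protein, is induced as well and remodels myonuclei. Runx1 is a transcription factor induced by denervation that limits wasting, and Ncam1 is the adhesion molecule that spreads from the synapse over the fibre surface. Gdnf is a survival factor for motor neurons, made by muscle and by Schwann cells, and it acts on nerve terminals through the co-receptor Gfra1 and the receptor tyrosine kinase Ret.

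Library totals ran from 20860262 to 29273758 counts and did not separate the genotypes (two-sided exact permutation test over 70 relabelings, p = 0.371; the smallest p of 4 against 4 is 0.0286). Levels are given as CPM, read counts scaled to library totals that were adjusted by the trimmed mean of M values (TMM), and per length as RPKM, the CPM divided by the length of the counted exons in kilobases. Unlike the totals, the TMM factors did separate the genotypes, at 1.02 to 1.05 in WT and 0.950 to 0.980 in KL-/-. The Kl gene is not among the 12551 genes analysed here, so the genotype was not checked on its own transcript. Within KL-/-, replicate 2 differed most from its group, with a chi-square per gene of 60.3 to 84.4 against 17.8 to 27.8 among the other 3. KL-/- replicate 3 was the only sample with a different batch date in the labels, so the fit without it is also the fit within the date the other 7 samples share. The myofibre markers were all in the table and their summed level was 135500 to 157400 CPM in WT and 167200 to 216200 CPM in KL-/-.

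Other cell types shifted with genotype. As background for the marker counts that follow, 7.35% of all genes were called higher and 6.67% lower in KL-/- (edgeR FDR under 0.05). All 10 Schwann cell markers were measured and none was at 0, 4 were higher and 0 lower in KL-/-, and their summed level was 46.7 to 77.2 CPM in WT and 88.4 to 105 CPM in KL-/-. Of the 8 leukocyte markers measured, 0 were higher and 3 lower, with sums of 46.9 to 87.8 against 24.7 to 45.4 CPM, and Cd3e was not in the table. Of 6 fibro-adipogenic progenitor markers 0 were higher and 2 lower, and the sums overlapped, at 728 to 2862 against 399 to 1270 CPM. Of 5 endothelial markers 0 were higher and 1 lower, and their sums did not overlap, at 369 to 556 CPM in WT and 332 to 366 CPM in KL-/-. The 6 satellite cell markers had 0 calls and overlapping sums, 43.8 to 55.6 and 48.5 to 61.3 CPM, and the smooth muscle, adipocyte and erythroid markers that were measured also had 0 calls and overlapping sums. In a bulk sample fewer cells of a type and less RNA per cell cannot be told apart, and the part of these shifts in the results on the 5 genes was not tested.

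Where each gene starts is shown first, because the denervation response is read through short promoter motifs. RefSeq starts (build GRCm38.p6) gave 6 windows of 250 bases before to 50 after a start, for 4 of the 5 genes. Each was searched on both strands for 6 motifs, the E-box CANNTG, the RUNX site TGTGGT, the AP-1 site TGANTCA, the cAMP response element core TGACG, the ATF4-type site TGATGCA and the MEF2 site. The 4 windows below belong to the member with the largest fold change (Gdnf), the other member past the threshold (Gadd45a), and 2 members that were not past it (Runx1, Hdac4), and capitals mark every match.
Gdnf, chr15:7809798-7810097, + strand: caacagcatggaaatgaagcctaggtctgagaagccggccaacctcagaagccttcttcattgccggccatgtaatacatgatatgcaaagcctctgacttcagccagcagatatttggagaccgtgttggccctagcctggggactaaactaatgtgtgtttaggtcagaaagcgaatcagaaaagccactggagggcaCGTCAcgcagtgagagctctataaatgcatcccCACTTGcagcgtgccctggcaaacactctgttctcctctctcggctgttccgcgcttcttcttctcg
Gadd45a, chr6:67037358-67037657, - strand: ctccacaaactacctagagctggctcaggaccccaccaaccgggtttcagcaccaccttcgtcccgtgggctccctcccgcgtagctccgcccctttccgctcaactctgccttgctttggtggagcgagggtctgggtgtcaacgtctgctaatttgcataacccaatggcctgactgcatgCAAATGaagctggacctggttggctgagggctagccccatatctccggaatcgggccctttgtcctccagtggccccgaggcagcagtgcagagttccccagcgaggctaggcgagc
Runx1, chr16:92826025-92826324, - strand: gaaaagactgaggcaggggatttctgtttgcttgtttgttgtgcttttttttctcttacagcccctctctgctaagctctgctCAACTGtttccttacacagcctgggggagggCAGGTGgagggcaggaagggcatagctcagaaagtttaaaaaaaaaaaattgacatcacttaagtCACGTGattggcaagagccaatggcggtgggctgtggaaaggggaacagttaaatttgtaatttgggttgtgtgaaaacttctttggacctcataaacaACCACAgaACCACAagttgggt
Hdac4, chr1:92180292-92180591, - strand: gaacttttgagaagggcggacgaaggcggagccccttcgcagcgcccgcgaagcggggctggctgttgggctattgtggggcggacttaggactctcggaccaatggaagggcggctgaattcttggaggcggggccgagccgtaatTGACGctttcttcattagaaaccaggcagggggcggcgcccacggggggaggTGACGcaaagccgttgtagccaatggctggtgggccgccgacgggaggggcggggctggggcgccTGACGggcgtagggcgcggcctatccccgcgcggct

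The Gdnf window held 1 E-box, CACTTG, whose first base lay at -17 from the start, and 1 cAMP response element core, CGTCA, on the opposite strand at -50. The Gadd45a window held 1 E-box, CAAATG at -67. Runx1 held 3 E-boxes, at -167, -136 and -71. It also held the letters ACCACA, the reverse complement of the RUNX site, at 29 and again at 37 after the start. Hdac4 held no E-box and 3 cAMP response element cores, at -103, -51 and 15. No AP-1, ATF4-type or MEF2 match was found in any of these windows. Of 32851 RefSeq promoters of the same length, 72.3% held an E-box, 20.8% the cAMP response element core, 16.8% the RUNX site, 7.81% the AP-1 site, 3.15% the ATF4-type site and 3.19% the MEF2 site, so an E-box is common and a match here is a description of letters only. Further windows belong to a second start of Gdnf (chr15:7813477-7813776, 1 E-box at -176) and of Runx1 (chr16:92697280-92697579, no match).

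Klotho deficiency went with more Gdnf and more Gadd45a transcript, while Ncam1, Runx1 and Hdac4 did not pass the test. By edgeR's quasi-likelihood test with Benjamini-Hochberg adjustment over all 12551 genes at an FDR of 0.05, 2 of the 5 genes were higher in KL-/- and 0 were lower. Over all genes tested 7.35% were called higher, 6.67% lower and 14% in either direction, so that with 5 genes the count is small for a comparison with that background. The median log2 fold change of the 5 was 0.42, and that of all genes was -0.016. The same 2 genes were those whose 8 samples did not overlap between genotypes, against 19.7% of all genes in either direction, 10.2% with KL-/- higher and 9.47% with KL-/- lower.

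**Figure D1:**
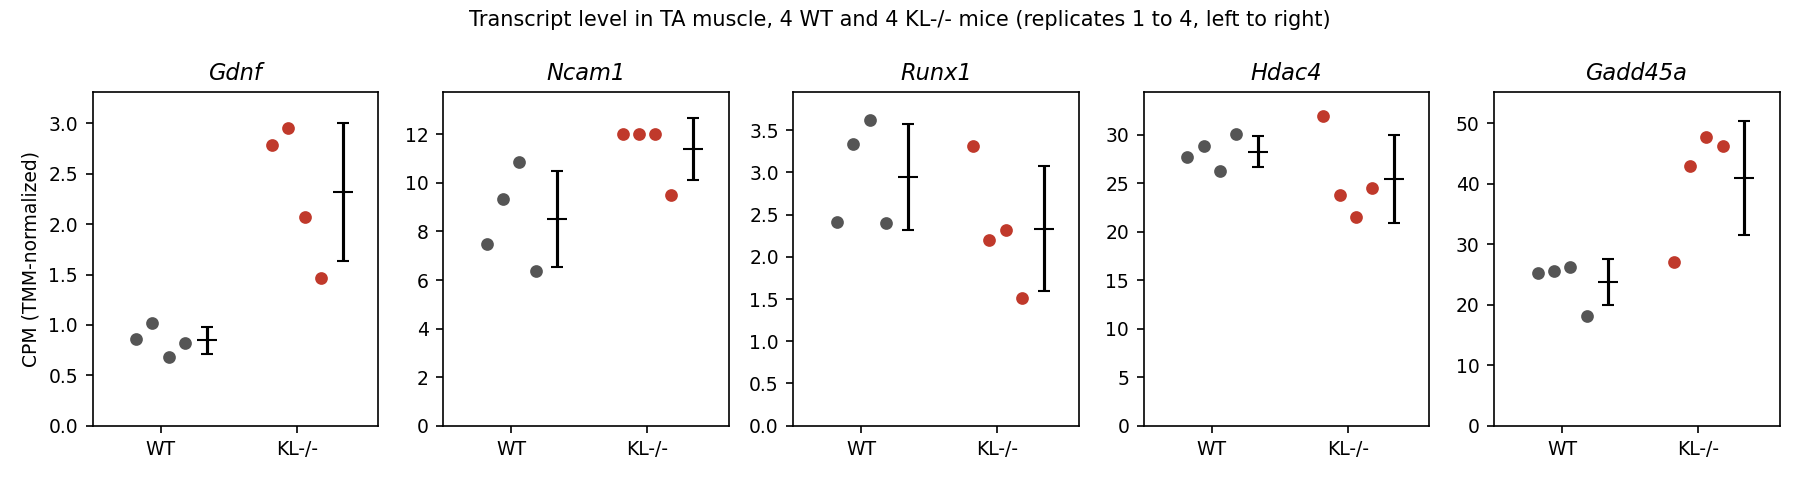
TMM-normalized CPM (vertical axes, from 0) of the 5 genes in 4 WT (grey) and 4 KL-/- (red) TA muscles, 1 point per mouse, with the mean and SD beside each group. All KL-/- points lie above all WT points for Gdnf and Gadd45a, and the groups overlap for Ncam1, Runx1 and Hdac4.

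Gdnf (ENSMUSG00000022144, mm10 chr15:7810048-7837580, + strand), the ligand of the set, was the least abundant member per length in WT and the one with the largest fold change. Its level was 0.857, 1.02, 0.686 and 0.825 CPM in WT replicates 1 to 4 and 2.79, 2.96, 2.07 and 1.47 CPM in KL-/- replicates 1 to 4. The lowest KL-/- muscle, replicate 4, stood above the highest WT muscle, replicate 2. These values rest on 21, 22, 18 and 23 reads in WT and 80, 62, 50 and 39 reads in KL-/-. The group means were 0.847 ± 0.136 CPM and 2.32 ± 0.686 CPM (SD, n = 4 each), a 2.74-fold higher mean in KL-/-. The log2 fold change was 1.45 with a standard error of 0.27 and a 95% interval of 0.86 to 2.05, and its FDR in edgeR's quasi-likelihood test was 0.0102, rank 375 of 12551. At these read numbers counting alone gives a coefficient of variation of 21.8% in WT, where the muscles varied by 16.1%, and of 13.2% in KL-/-, where they varied by 29.5%. The spread among WT muscles was therefore no larger than read counting allows, whereas the KL-/- muscles spread more widely. Each of 8 leave-one-out fits, made without 1 sample each, kept the call, with log2 fold changes of 1.34 to 1.63 and an edgeR FDR of 0.0102 to 0.0337. Without KL-/- replicate 2 the log2 fold change was 1.34, and within the shared batch date it was 1.502. The Schwann cell marker sum, 46.7 to 77.2 CPM in WT and 88.4 to 105 CPM in KL-/-, was higher in the same genotype, and its part in the Gdnf difference was not tested.

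The other genes of the GDNF system did not rise with Gdnf. Of its 9 listed ligands and receptors 6 were in the table, and Artn, Pspn and Gfra3 were not. Among the 5 besides Gdnf, 0 were higher and 1, Ret, was lower (over all genes 7.35% and 6.67%). Ret, the signalling receptor, was at 9.43, 11.8, 13.7 and 7.60 CPM in WT and 5.27, 5.49, 2.07 and 2.07 CPM in KL-/-. Every KL-/- muscle was below every WT muscle, and KL-/- replicates 3 and 4 were lowest. The mean went from 10.6 ± 2.67 to 3.72 ± 1.91 CPM, 2.86-fold higher in WT, with a log2 fold change of -1.52, a standard error of 0.33 and an FDR of 0.0200 (edgeR quasi-likelihood). The Ret call was kept in 5 of 8 leave-one-out fits, with the highest FDR at 0.0589 without WT replicate 3. Leukocyte markers, at 46.9 to 87.8 CPM in WT and 24.7 to 45.4 CPM in KL-/-, moved in the same direction as Ret. Fibro-adipogenic progenitor and endothelial markers did too, with median log2 fold changes of -1.11 and -0.23, against -0.95 for leukocyte markers. The medians of the remaining marker lists were above 0. The part of these shifts in the Ret values was not tested.

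Nrtn, a second ligand of the family that prefers the co-receptor Gfra2, was at 2.47 to 3.47 CPM in WT and 3.34 to 3.81 CPM in KL-/-, with overlapping groups (log2 fold change 0.27, edgeR FDR 0.215). Gfra1, the co-receptor for Gdnf, was at 4.995 to 6.25 CPM in WT and 4.77 to 6.92 CPM in KL-/- (log2 fold change 0.029 with an interval of -0.28 to 0.34, edgeR FDR 0.902). The interval of Gfra1 leaves out a change of the size seen for Gdnf. Gfra2 (log2 fold change -0.53, interval -1.28 to 0.21, FDR 0.293) and Gfra4 (-0.29, interval -1.01 to 0.44, FDR 0.569) were measured less precisely in the same edgeR fit. Per length, Nrtn was the main ligand of the pair in both genotypes. Gdnf made up 5.78% ± 0.664 of the summed Gdnf and Nrtn RPKM in WT and 12.4% ± 3.71 in KL-/- (SD, n = 4 each).

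The RPKM ratio of Gdnf to Ret was 0.137, 0.130, 0.0756 and 0.164 in WT and 0.799, 0.813, 1.51 and 1.07 in KL-/-. Thus Gdnf transcript stood well below Ret in every WT muscle and near or above it in KL-/-, where replicates 3 and 4 exceeded 1. Both are transcript levels in whole muscle, and which cells there carry Ret was not tested. The ratio is therefore not a measure of ligand and receptor at nerve terminals. On the log2 CPM scale the Gdnf to Ret ratio differed between genotypes by 2.95, and the Gdnf to Nrtn and Gdnf to Gfra1 ratios by 1.08 and 1.31. Each of the 3 had p = 0.0286 in the two-sided exact permutation test, the smallest 4 against 4 samples can give, and 0.0686 after Benjamini-Hochberg adjustment over 12 ratios to relatives, a set of ratios that was added after the values were seen.

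**Figure D2:**
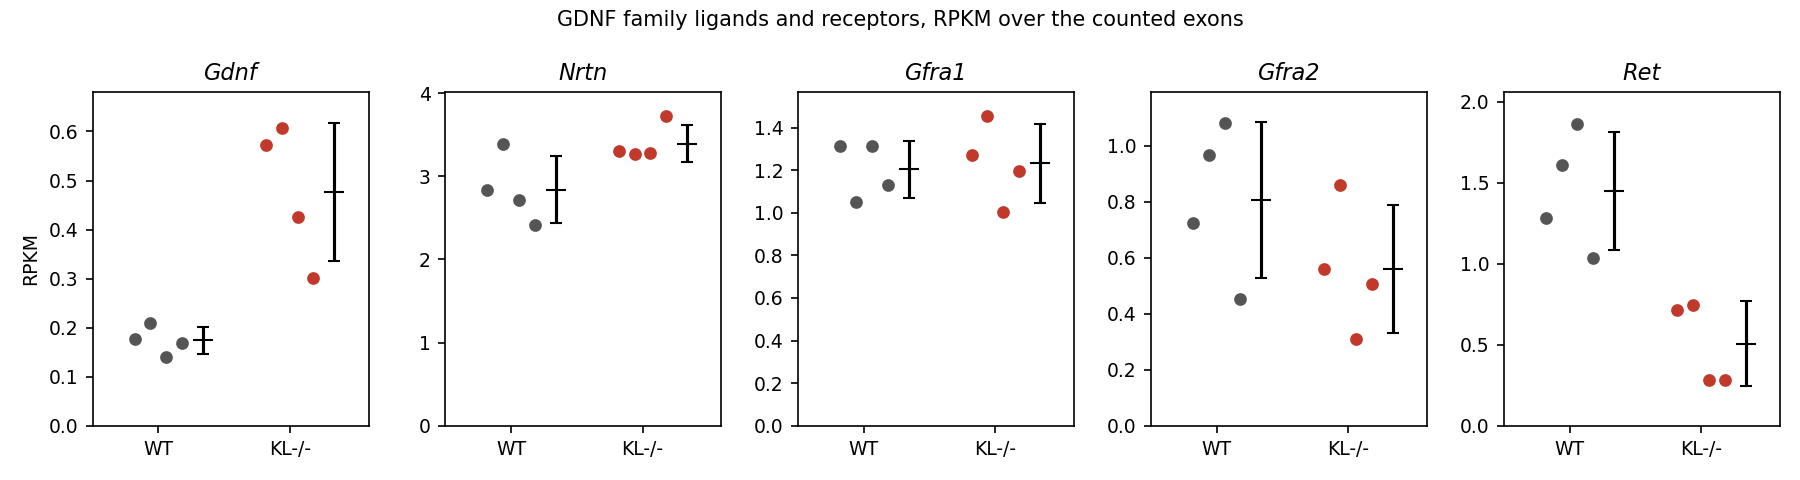
RPKM over the counted exons (vertical axes, from 0) of Gdnf, Nrtn, Gfra1, Gfra2 and Ret in WT (grey) and KL-/- (red) muscles, 1 point per mouse with mean and SD. Gdnf is higher and Ret lower in every KL-/- muscle, whereas the 3 panels between them overlap.

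Of the 6 other neurotrophic ligands reported here, 0 were higher and 1 lower (over all genes 7.35% and 6.67%). The lower one was Ntf5, neurotrophin-4, which active muscle supplies to motor neurons. It was at 10.1, 10.8, 9.53 and 8.64 CPM in WT and 6.77, 6.25, 6.55 and 7.88 CPM in KL-/-, so the groups did not overlap (log2 fold change -0.51, SE 0.11, edgeR FDR 0.0187). The Ntf5 call was kept in 6 of 8 leave-one-out fits, and was lost without WT replicate 2 (FDR 0.0559) and without KL-/- replicate 3 (FDR 0.0554), the fit within the shared batch date, as well as with the replicate block (FDR 0.0718). Bdnf, a related neurotrophin, was at 1.35 to 1.79 CPM in WT and 1.66 to 4.92 CPM in KL-/- (log2 fold change 0.85, edgeR FDR 0.145). Its high value came from KL-/- replicate 1 alone, and the other 3 KL-/- muscles lay at 1.66 to 2.16 CPM.

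Ncam1 (ENSMUSG00000039542, mm10 chr9:49502146-49799069, - strand), the surface adhesion molecule, had a higher mean in KL-/- but did not pass the threshold. Its level was 7.47, 9.34, 10.9 and 6.38 CPM in WT and 12.03, 12.02, 12.02 and 9.50 CPM in KL-/- replicates 1 to 4. The first 3 KL-/- muscles were nearly alike and above every WT muscle, while replicate 4 fell between WT replicates 2 and 3. Means were 8.52 ± 1.99 and 11.4 ± 1.26 CPM (SD, n = 4 each), a ratio of 1.34. The log2 fold change was 0.42 (SE 0.16, 95% interval 0.05 to 0.79), with an unadjusted p of 0.0292 and an FDR of 0.113 in edgeR's quasi-likelihood test. An unadjusted p under 0.05 was reached by 32.1% of all genes. None of the 16 alternative fits, 1 of which (no filter on low counts) repeats the main fit, brought its FDR under 0.05. The lowest edgeR FDR among the leave-one-out fits was 0.0639, without WT replicate 3. Schwann cells and satellite cells also make Ncam1, and the Schwann cell marker sum was higher in KL-/- (88.4 to 105 against 46.7 to 77.2 CPM), a shift whose part in the Ncam1 values was not tested.

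Of 7 genes for NCAM relatives and for the enzymes that add polysialic acid to NCAM, 5 were in the table (Ncam2 and St8sia2 were not). Besides Ncam1, 1 was higher and 0 lower (over all genes 7.35% and 6.67%). The higher one was Nfasc, neurofascin, an adhesion molecule of nodes of Ranvier that Schwann cells and axons carry. It was at 0.776, 0.463, 0.648 and 0.610 CPM in WT and 1.26, 1.34, 1.62 and 1.62 CPM in KL-/-, from 10 to 19 reads a sample in WT and 28 to 43 in KL-/-. Nfasc did not overlap between genotypes (log2 fold change 1.21, SE 0.22, edgeR FDR 0.0105) and kept its call in all 8 leave-one-out fits. The ratio of Ncam1 to Nfasc overlapped between genotypes (difference in log2 ratio -0.70, two-sided exact permutation test p = 0.0571, adjusted 0.114 over the 12 ratios). St8sia4, the polysialyltransferase that was measured, was at 7.43 to 12.7 CPM in WT and 5.02 to 11.2 CPM in KL-/- (log2 fold change -0.31, edgeR FDR 0.398).

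Runx1 (ENSMUSG00000022952, mm10 chr16:92601466-92826074, - strand), the denervation-induced transcription factor, was not higher in KL-/-. Its level was 2.41, 3.33, 3.62 and 2.403 CPM in WT and 3.31, 2.20, 2.32 and 1.51 CPM in KL-/-, from 40 to 95 reads a sample. In KL-/- replicate 1 was at the level of WT, while the other 3 lay below all WT muscles. Means were 2.94 ± 0.629 and 2.33 ± 0.744 CPM (SD, n = 4 each), and the log2 fold change was -0.32 (SE 0.25, interval -0.87 to 0.23, edgeR FDR 0.397). The upper bound leaves out a rise of the size fitted for Gdnf or Gadd45a, but a fall by more than 1.5 times remains inside the interval. Without KL-/- replicate 1 the log2 fold change was -0.55 at an FDR of 0.164, and without KL-/- replicate 4 it was -0.15 at an FDR of 0.696. Leukocytes, which also carry Runx1, had a lower marker sum in KL-/- (24.7 to 45.4 against 46.9 to 87.8 CPM), and its part in the Runx1 values was not tested.

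Of 7 genes for RUNX factors and their partners 6 were measured (Runx3 is not in the table). Besides Runx1 0 were higher and 1 lower (over all genes 7.35% and 6.67%). Cbfa2t3, a corepressor of the ETO family, went from 40.8 ± 4.43 to 27.5 ± 5.01 CPM (log2 fold change -0.57, SE 0.13, edgeR FDR 0.0227). Its groups did not overlap, but the call held in only 5 of 8 leave-one-out fits, with the highest FDR at 0.0646 without WT replicate 3. Runx2, the osteoblast factor of the family, had 1.062 to 2.64 CPM in WT and 0.679 to 1.00 CPM in KL-/-. The Runx2 groups did not overlap, yet its log2 fold change of -0.90 did not pass (edgeR FDR 0.0982). Cbfb, the partner that RUNX proteins need to bind DNA, was at 82.8 to 102 CPM in WT and 93.9 to 137 CPM in KL-/- (log2 fold change 0.22, edgeR FDR 0.232).

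Hdac4 (ENSMUSG00000026313, mm10 chr1:91932749-92148393, - strand), the class IIa deacetylase of the denervation circuit, did not pass the test in either direction. Its level was 27.7, 28.8, 26.3 and 30.1 CPM in WT and 31.9, 23.8, 21.5 and 24.5 CPM in KL-/-. KL-/- replicate 1 was the highest of all 8 muscles, and the other 3 KL-/- muscles were below all WT muscles. Means were 28.2 ± 1.62 and 25.4 ± 4.51 CPM (SD, n = 4 each), with a log2 fold change of -0.15 (SE 0.12, interval -0.41 to 0.11, edgeR FDR 0.397). WT muscles varied by 5.74% around their mean and KL-/- muscles by 17.7%. Without KL-/- replicate 1 the log2 fold change was -0.27 at an FDR of 0.0640, and within the shared batch date it was -0.077 at an FDR of 0.711. The counted exons of Hdac4 span 3945 bases, 24.95% of its GENCODE exon bases, and its counted model starts downstream of the RefSeq start whose promoter is printed above, so reads of the remaining exons did not enter its level.

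All 11 genes for class IIa deacetylases, their corepressors and MEF2 factors were in the table. Besides Hdac4 3 were higher and 0 lower (over all genes 7.35% and 6.67%). Hdac5, the most abundant class IIa enzyme per length here, was at 85.7, 85.6, 78.2 and 80.9 CPM in WT and 111, 90.5, 110 and 101 CPM in KL-/-. The Hdac5 groups did not overlap, with a log2 fold change of 0.32 (SE 0.07, edgeR FDR 0.0243), but only 2 of 8 leave-one-out fits kept it past the threshold, and it was 0.20 with library totals in place of TMM (FDR 0.0866). Ncor1, a corepressor that docks Hdac3 to class IIa enzymes, rose from 163 ± 4.99 to 194 ± 7.09 CPM (log2 fold change 0.25, edgeR FDR 0.0162), kept its call in 6 of 8 leave-one-out fits, and was at 0.13 with library totals (FDR 0.110). Sik1, a kinase that keeps class IIa deacetylases in the cytoplasm, was at 8.86, 10.8, 10.4 and 8.36 CPM in WT and 15.6, 16.9, 59.97 and 28.1 CPM in KL-/-. KL-/- replicate 3 was far above the rest, though the groups did not overlap (log2 fold change 1.65, SE 0.40, edgeR FDR 0.0264, kept in 3 of 8 leave-one-out fits).

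Within the class IIa enzymes Hdac4 made up 21.9% ± 1.32 of the summed RPKM of Hdac4, Hdac5, Hdac7 and Hdac9 in WT and 17.8% ± 2.23 in KL-/-, while Hdac5 made up 57.0% ± 1.48 and 64.3% ± 2.87 (SD, n = 4 each). The log2 ratio of Hdac4 to Hdac5 was lower in every KL-/- muscle than in any WT muscle, by 0.48 on average (two-sided exact permutation test p = 0.0286, adjusted 0.0686 over the 12 ratios). Ratios to Hdac7 and Hdac9 overlapped. Of the genes downstream of Hdac4 in the denervation circuit, Dach1, Dach2 and Myog, 0 of 3 passed. Dach2, the repressor that Hdac4 silences, was at 4.99 to 9.83 CPM in WT and 5.65 to 7.35 CPM in KL-/- (log2 fold change -0.15, interval -0.63 to 0.34, edgeR FDR 0.669). Myog, the factor that Dach2 holds down, was at 2.58 to 7.12 CPM and 4.03 to 11.8 CPM (log2 fold change 0.31, interval -0.61 to 1.22, edgeR FDR 0.637), and its sign turned to -0.14 without KL-/- replicate 2.

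Gadd45a (ENSMUSG00000036390, mm10 chr6:67035096-67037407, - strand), the stress-induced nuclear protein, was higher in KL-/-, and was the most abundant member per length in both genotypes. Its level was 25.2, 25.5, 26.2 and 18.1 CPM in WT and 27.1, 42.8, 47.6 and 46.2 CPM in KL-/-. KL-/- replicates 2 to 4 formed a high group, while replicate 1 stood at the level of WT: its 95% Poisson interval of 25.2 to 29.0 CPM overlapped the 24.3 to 28.3 CPM of WT replicate 3. The groups thus do not overlap only by a gap that lies within counting error. Means were 23.8 ± 3.81 and 40.9 ± 9.46 CPM (SD, n = 4 each), a 1.72-fold higher mean, and the log2 fold change was 0.79 (SE 0.18, interval 0.38 to 1.19, edgeR FDR 0.0237). The direction held in all 16 alternative fits, 1 of which (no filter on low counts) repeats the main fit. The call, however, was kept in only 4 of the 8 leave-one-out fits. It was lost without WT replicate 2 (FDR 0.0547), WT replicate 3 (0.0504), KL-/- replicate 3 (0.0642), which is the fit within the shared batch date, and KL-/- replicate 4 (0.0679). Without KL-/- replicate 1 the log2 fold change was 0.95 at an FDR of 0.00806.

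Gadd45a shares 238 exon bases with E230016M11Rik on the opposite strand, and whether counting used strand is not given in the sources used here, so reads in that stretch may be split or lost. E230016M11Rik was at 0.499 and 0.970 CPM in WT and KL-/- (log2 fold change 0.95, edgeR FDR 0.0704), far below Gadd45a. Other annotated transcripts overlap counted exons on the opposite strand of Ncam1 (Gm11149, 414 bases), Runx1 (Gm26626, 106 bases) and Hdac4 (Gm26720, 132 bases), and none of the 3 is in the table.

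All 7 genes of the GADD45 list, its family with upstream and downstream partners, were in the table. Besides Gadd45a 2 were higher and 0 lower (over all genes 7.35% and 6.67%). Gadd45g was at 21.8, 11.98, 6.63 and 13.6 CPM in WT and 21.5, 25.5, 70.2 and 64.3 CPM in KL-/-. KL-/- replicates 3 and 4 were about alike and high, and replicate 1 was within the range of WT (log2 fold change 1.75, SE 0.45, edgeR FDR 0.0329, kept in 3 of 8 leave-one-out fits). Cdkn1a, the cell cycle inhibitor p21 that denervated muscle also induces, was at 16.6, 17.9, 13.3 and 16.8 CPM in WT and 27.1, 16.1, 41.9 and 30.4 CPM in KL-/-. It overlapped through KL-/- replicate 2 and its call was marginal (log2 fold change 0.84, edgeR FDR 0.0457, kept in 1 of 8 leave-one-out fits). Gadd45b had a lower mean in KL-/-, 54.6 ± 11.1 against 42.6 ± 6.95 CPM, and did not pass (log2 fold change -0.36, edgeR FDR 0.155). Atf4, a transcription factor listed as upstream of Gadd45a, was at 129 to 165 CPM in WT and 124 to 196 CPM in KL-/- (log2 fold change 0.21, edgeR FDR 0.329).

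Per length, Gadd45b led the family in WT, with 57.3% ± 6.61 of the summed RPKM of the 3 genes, and its share was 33.0% ± 12.5 in KL-/-. Gadd45a had 25.8% ± 1.78 and 30.8% ± 4.69, and Gadd45g 16.8% ± 7.60 and 36.2% ± 13.3 (SD, n = 4 each). The log2 ratio of Gadd45a to Gadd45b did not overlap between genotypes and was 1.11 higher in KL-/- (two-sided exact permutation test p = 0.0286, adjusted 0.0686 over the 12 ratios). The ratio of Gadd45a to Gadd45g overlapped (difference -0.91, exact permutation p = 0.143, adjusted 0.214).

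**Figure D3:**
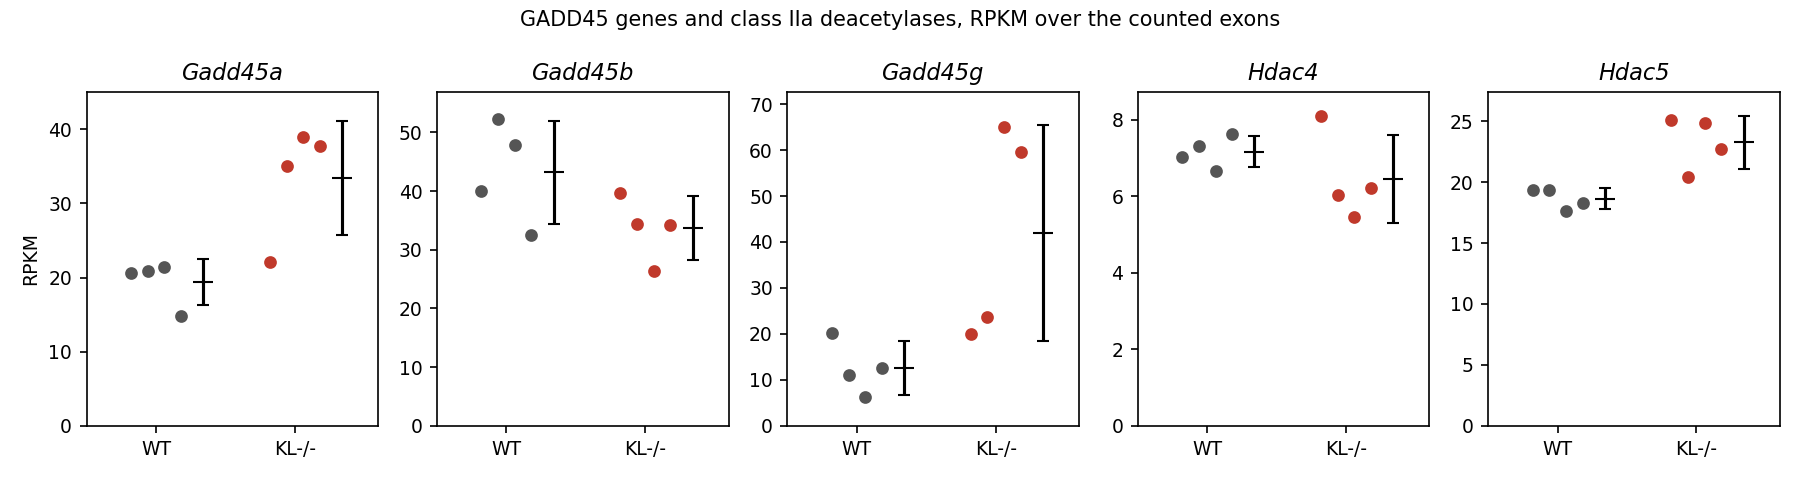
RPKM over the counted exons (vertical axes, from 0) of Gadd45a, Gadd45b, Gadd45g, Hdac4 and Hdac5 in WT (grey) and KL-/- (red) muscles, 1 point per mouse with mean and SD. Gadd45a and Hdac5 do not overlap between genotypes, Gadd45g is high in KL-/- replicates 3 and 4, and Hdac4 is high in KL-/- replicate 1.

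Set against each other per length, the 5 genes kept one order in WT: Gadd45a (19.4 RPKM), Hdac4 (7.16), Ncam1 (0.903), Runx1 (0.399) and Gdnf (0.174). These means were at the 84.6, 56.9, 17.6, 5.55 and 4.80 percentile of all genes by level over the 8 samples. The counted exons held 100% of the GENCODE exon bases for Gdnf, 82.48% for Ncam1, 69.39% for Gadd45a, 61.35% for Runx1 and 24.95% for Hdac4. Levels per length cover the counted exons only. In KL-/- the means were 33.4, 6.45, 1.21, 0.316 and 0.477 RPKM, so Gdnf and Runx1 changed places. The log2 ratio of Gdnf to Runx1 was 1.69 higher in KL-/-, with no overlap between genotypes. Of 10 ratios between the members 4 did not overlap, Gdnf to Runx1, Gdnf to Hdac4 (1.5025 higher), Gdnf to Ncam1 (0.90 higher) and Ncam1 to Runx1 (0.79 higher). Each of these 4 had p = 0.0286 in the two-sided exact permutation test and 0.0714 after adjustment over the 10, so none passed, and 4 against 4 samples allow no smaller p. Gdnf and Gadd45a, the members past the threshold, were not told apart in size (difference 0.57, exact permutation p = 0.229, adjusted 0.286).

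**Figure D4:**
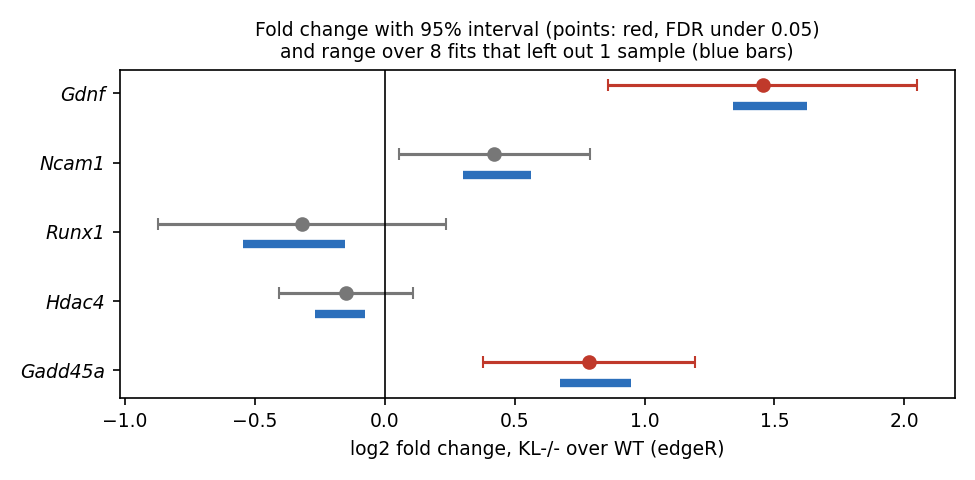
Log2 fold change of KL-/- over WT (horizontal axis) for the 5 genes from edgeR, with the 95% interval (thin bars; red, FDR under 0.05) and the range over the 8 leave-one-out fits (thick blue bars). Gdnf, at 1.45, and Gadd45a, at 0.79, lie clear of 0, the Ncam1 interval begins at 0.05, and those of Runx1 and Hdac4 include 0.

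Within genotypes the 5 genes did not move as a group. After each genotype mean was removed from log2 CPM, Pearson's r over the 8 samples was -0.90 between Hdac4 and Gadd45a and 0.78 between Ncam1 and Runx1, and the other 8 pairs lay between -0.42 and 0.55. These are descriptions over samples that share library depth and tissue composition. KL-/- replicate 1, the muscle with the highest Hdac4 and Runx1 in its group, had the lowest Gadd45a. By the same measure over about 9760 genes with a mean log2 CPM of at least 2, the genes most like Ncam1 were Pcdh19 (r = 1.00), Sept9 (0.98) and Chrna1 (0.97), the last a subunit of the muscle acetylcholine receptor. Those most like Gdnf were Prkdc (0.95), Vcpip1 (0.94) and Uty (0.93), and those most like Runx1 were Copz1, Eml4 and Dlgap4 (0.98 each). Hdac4 was followed by Zfp672 (0.96), Fasn (0.95) and Nog (0.94), and Gadd45a by Sult1a1, Lnx1 and Fosl2 (0.95 each). Of these 15 genes only Chrna1 differed between genotypes past the threshold. All were picked as the highest of about 9760 genes over 8 samples, so a high r was built into the choice. By Spearman's rank correlation Chrna1 stood 50th for Ncam1. Within KL-/- the Ncam1 spread was that of replicate 4, as the other muscles were nearly alike.

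Among 18 other transcripts known to be induced by denervation 16 were in the table (Chrng and Gdf5 were not). Of these, 4 were higher and 1 lower, against 7.35% and 6.67% of all genes. Chrna1 was at 12.9, 17.1, 20.9 and 11.3 CPM in WT and 29.0, 28.1, 31.5 and 24.9 CPM in KL-/- (log2 fold change 0.87, SE 0.18, edgeR FDR 0.0146). Within WT it followed the same order of muscles as Ncam1. Runx1, Ret and the summed leukocyte and fibro-adipogenic progenitor markers had that order too, so it was not particular to this pair. Sln, the SERCA inhibitor sarcolipin, was at 0.327 to 0.879 CPM in WT and 1.89 to 4.35 CPM in KL-/- (log2 fold change 2.19, SE 0.37, edgeR FDR 0.00760). Of the developmental myosins, Myh8 went from 7.54 ± 0.828 to 16.8 ± 1.16 CPM (log2 fold change 1.16, edgeR FDR 0.00129) and Myh3 from 2.60 ± 0.685 to 7.33 ± 3.44 CPM (1.49, edgeR FDR 0.0231). Fbxo30, a ubiquitin ligase induced on denervation, was the lower gene, from 24.0 ± 1.18 to 18.5 ± 0.862 CPM (log2 fold change -0.37, edgeR FDR 0.0102). The call was kept in all 8 leave-one-out fits for Chrna1, Sln, Myh8 and Fbxo30, and in 3 of 8 for Myh3. The remaining 11 did not pass, among them Chrnd (0.47, edgeR FDR 0.0703) and the ligases Fbxo32 (0.17, FDR 0.679) and Trim63 (0.14, FDR 0.534).

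Over the 8 lists, 55 genes other than the 5 were measured, of which 10 were higher and 4 lower, 25.5% against the 14% of all genes. Their median log2 fold change was 0.029, against -0.016 for all genes. The lists were written with earlier results of these data known, so this share is given as a description.

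**Figure D5:**
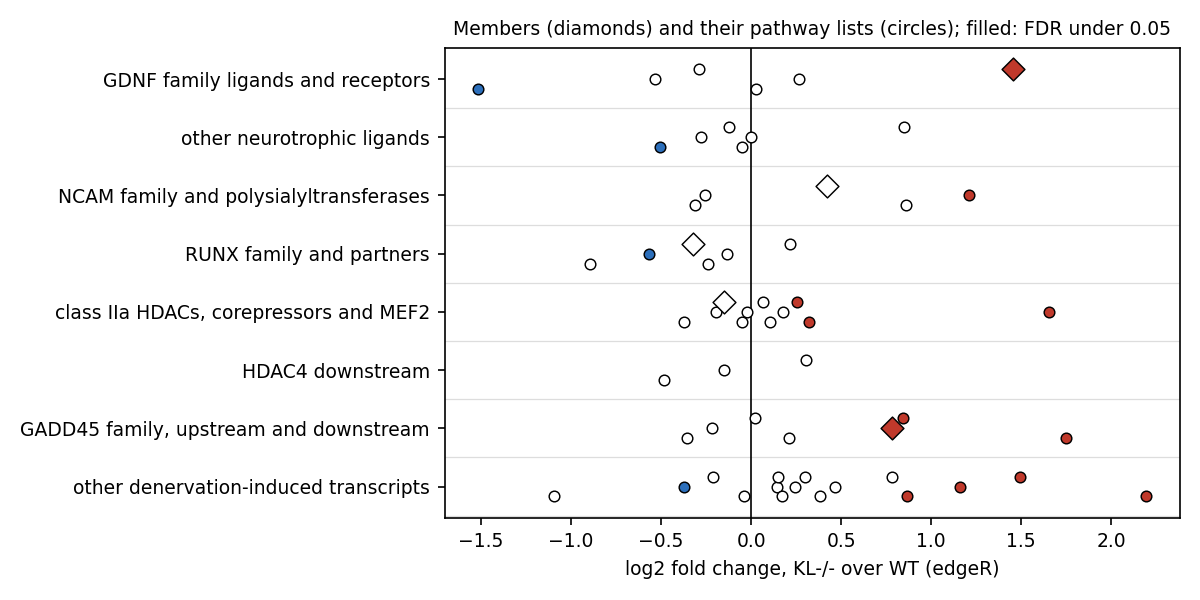
Log2 fold change of KL-/- over WT (horizontal axis) for the 5 genes (diamonds) and the other genes of the 8 lists (circles), 1 list per row. Filled symbols have an FDR under 0.05 in edgeR (red higher, blue lower), and in every list but the 1 downstream of HDAC4 at least 1 gene is filled.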

How the data were processed

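Total RNA of TA muscle (100 ng per library) was sequenced from 4 WT and 4 KL-/- male mice. The deposited values are raw counts per gene: the authors used STAR on the mm10 build, left out reads of low mapping quality and counted with featureCounts. The annotation, the strand setting and how the table came to hold 12551 genes are not given in the sources used here. Groups were taken from the sample titles.

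Counts were fitted with edgeR 4.0.16 (R 4.3.3): TMM factors, filterByExpr (which removed no gene), glmQLFit and glmQLFTest on genotype alone, Benjamini-Hochberg over 12551 genes and an FDR threshold of 0.05. CPM and RPKM use TMM-scaled totals and the length column. Log2 CPM for ratios and correlations has a prior count of 2. Standard errors are the log2 fold change over the square root of F. Ratios between genes were tested by two-sided exact permutation over 70 relabelings (SciPy 1.17.1). Poisson intervals are at 95% and cover counting error only. Alternatives were other size factors and filters, DESeq2 1.42.0, limma-voom (limma 3.58.1), edgeR's likelihood ratio test, a replicate block and leaving out each sample. The alternative with no filter is the same as the main fit, as filterByExpr removed no gene.

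The 5 genes, the lists and the tests were chosen with earlier results of these data known. Named genes are the 5, genes of the lists past the threshold, others of a list where a member's account needs them, the 3 most like each member and genes overlapping a member. Nothing in the labels says more of the replicates than that they are separate samples, so p-values measure the spread between these samples. Within each genotype, every pair of samples differed by more than sampling noise (chi-square per gene at least 9.91).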

Additional observations from a re-analysis of the deposited data

Results flagged for a closer look

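For the level of the 5 genes and the library total, each genotype's 4 samples were checked for a sample far from the others, as the gap to its nearest neighbour over the whole range, against Dixon's 95% critical value. Of 12 such groups 2 were past it, where chance gives about 1 in 20. Ncam1 in KL-/- replicate 4 was the lowest of its 4, with a ratio of 0.9956: it was at 9.50 CPM and the other 3 at 12.02 to 12.03 CPM. Gadd45a in WT replicate 4 was the lowest of its 4, with a ratio of 0.8775: it was at 18.1 CPM and the other 3 at 25.2 to 26.2 CPM. Without the first the log2 fold change of Ncam1 was 0.50 (edgeR FDR 0.116), and without the second that of Gadd45a was 0.67 (edgeR FDR 0.0451).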

How the results depend on the processing

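Gdnf kept its direction and call in all 16 alternative fits (log2 fold change 1.34 to 1.63), and Ncam1, Runx1 and Hdac4 kept their direction and passed in none. Among the 16, the fit with no filter on low counts equals the main fit, because the filter removed no gene. Its result could not differ and adds nothing to these counts. Gadd45a kept its direction in all 16 (0.67 to 0.95 over the 8 fits that left out 1 sample) and its call in 11. Replicate numbers did not pair the samples (r of same-numbered deviations -0.37 to 0.18, 1 of 4 pairs over 0.1, and 1 WT sample correlating best with its own number). With the replicate block Gadd45a was at 0.77 (edgeR FDR 0.0591), Gdnf kept its call (FDR 0.0301), and calls numbered 671 in place of 1759 (348 higher, 323 lower, from 922 and 837), with 5 genes of the lists higher and 2 lower. With library totals in place of TMM 492 genes were higher and 2127 lower, 7 genes of the lists were lower, the higher share of calls went from 52.4% to 18.8%, and the middle log2 fold change over the table from -0.016 to -0.13. Leaving out 1 sample gave 762 to 2755 calls (404 to 1521 higher, 343 to 1234 lower), with 4 to 12 genes of the lists higher and 2 to 5 lower. Totals were more than 1.5 times lower without KL-/- replicate 3 (762), WT replicate 3 (775), KL-/- replicate 4 (778) or WT replicate 2 (780) and more than 1.5 times higher without KL-/- replicate 2 (2755), and the lower calls alone were reduced so far without KL-/- replicate 1 (529) or WT replicate 1 (536).

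Signs turned for 5 genes that passed in none of the 16 fits. Over the leave-one-out fits Gfra1 ran from -0.0465 (without KL-/- replicate 2; -0.027 without WT replicate 2 and -0.001 without WT replicate 4) to 0.11, and was at -0.088 with library totals. Dach2 ran from -0.28 to 0.056 (without WT replicate 4), Myog from -0.14 (without KL-/- replicate 2) to 0.51, Trim63 from -0.0485 (without KL-/- replicate 3) to 0.23, and Hdac7 from -0.11 to 0.033 (without KL-/- replicate 2; 0.028 without WT replicate 3). The difference in the Hdac4 to Hdac9 ratio, added after the data were seen, ran from -0.07 (without KL-/- replicate 1) to 0.48. The cause was not tested. Among the 5 genes Gdnf had the fewest reads, 18 to 80 a sample.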
